A study of Mus musculus with 6 samples.

Results

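The genes described here flank Foxo3 on mouse chromosome 10. They are 45 of the 54648 gene symbols in the deposited table, chosen by symbol from genes that lie within about 5 Mb of Foxo3, with Foxo3 itself left out. In the GENCODE M21 annotation of GRCm38 all 45 were found, from Lama4 at 3.07 Mb below Foxo3 in coordinate to Hace1 at 3.30 Mb above it. The annotation holds 192 genes within 5 Mb of Foxo3, 58 of them protein coding and 123 with a count in any library, so the 45 are a selection. They comprise 43 protein coding genes, the processed pseudogene Gm9855 and the long intergenic RNA gene Gm48061. A count was found for 43 of them, and Slc22a16 and Gpr6 had none in any library.

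RNA-seq was done on peritoneal cells of C57BL/6 mice, male and female by the study's methods, aged 6 to 8 weeks and kept on standard chow. The groups were 3 wildtype (WT) and 3 FOXO3 knockout (FOXO3 KO) samples, the latter from littermates genotyped as homozygous. Mice of both groups were injected with 3% thioglycollate, which draws inflammatory cells into the abdominal cavity, and the cells, mostly macrophages, were harvested after 4 days. No cells were sorted by marker. The labels show the replicates to be separate samples only by their titles, so p-values measure the spread between these samples, which may in part be technical. In such bulk RNA, fewer cells of a type and less RNA per cell cannot be told apart.

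Foxo3 encodes a forkhead transcription factor that acts on stress resistance, growth and immune responses. Genes that lie close together on a chromosome are inherited together, and neighbouring genes can share a promoter region or overlap on opposite strands. Their products need have nothing in common: the genes around Foxo3 encode, among others, endosomal and lysosomal proteins, a Src-family kinase, a laminin chain and the autophagy protein ATG5. The strain in which the targeted chromosome was made is not given in the sources used here.

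Libraries held between 28083572 and 36424331 estimated counts, and levels per library are in CPM, that is, counts over the library total after scaling with edgeR's TMM factors. Macrophage markers were high in every library, with sums of 15110 to 19860 CPM in WT and of 16710 to 18730 CPM in FOXO3 KO. Some libraries stood apart. Xist was above 10 CPM only in WT 3 and FOXO3 KO 3, at 871 and 1130 CPM, and the Y-linked Ddx3y was nevertheless at 23.7 CPM in WT 3. B cell markers summed to 3251 CPM in WT 3 and to between 128 and 686 CPM in the other 5 libraries, while markers of mesothelial cells and fibroblasts summed to 320 CPM in the library labelled FOXO3 KO 2 and to between 35.0 and 142 CPM in the others.

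The targeted gene was read first in every library. Foxo3 (chr10:42181841-42276755, minus strand) was at 117, 107 and 73.1 CPM in WT 1 to 3, and at 4.71, 104 and 4.29 CPM in FOXO3 KO 1 to 3. The library labelled FOXO3 KO 2 was within the WT range and so went against its label, while FOXO3 KO 1 and 3 were far below all WT libraries. Over the labelled groups the log2 fold change of Foxo3 (FOXO3 KO over WT) was -1.40 ± 1.22 (SE), with an adjusted p of 0.859 by edgeR's quasi-likelihood test. Without the library labelled FOXO3 KO 2 it was -4.46 ± 0.29 with an adjusted p of 0.105 by the same test and of 8.31e-44 by DESeq2. With a term for the split of these libraries by Xist it was -4.35 ± 0.18 with an adjusted p of 0.00536 by edgeR. Over all settings tried, most of which kept the library labelled FOXO3 KO 2, the adjusted p ranged from 8.31e-44 to 1. Fold changes of the flanking genes are therefore given with that library, in the fit of 6 libraries, and without it, in the fit of 5 libraries.

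The comparison of WT with FOXO3 KO asked here how far the neighbours of the disrupted gene differed along with it. In the fit of 6 libraries 33 of the 45 genes were abundant enough to test, and 34 in the fit of 5 libraries, which added Gm48061. Their sizes of change were close to those of all genes: 18 of 33 had a log2 fold change below 0.2 in size in 6 libraries (54.5%, against 54.4% of all 15608 genes tested), and 16 of 34 in 5 libraries (47.1% against 51.8%). Their median in 6 libraries was -0.05 against -0.01 for all genes. By sign alone 15 were higher in FOXO3 KO and 18 lower (48.8% and 51.2% of all genes). In the fit of 5 libraries the median was -0.04 against -0.02 for all 16217 genes tested, with 14 higher and 20 lower (47.6% and 52.4% of all genes). Among genes abundant in both groups the lowest unadjusted p-values were those of Armc2 and Mical1, which were lower in FOXO3 KO, and of Fyn and Lama4, which were higher. A further 4 genes reached the level of the filter (0.319 CPM in 6 libraries and 0.309 CPM in 5) in enough libraries of 1 group only, Ak9 and Gm9855 in WT and Wasf1 and Gm48061 in FOXO3 KO. Each passed the filter through the group in which it was higher, so their own values are given below as descriptions, without p-values. Some counts below still include them.

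By edgeR's quasi-likelihood test none of the 33 genes, nor of the 34, passed an adjusted p of 0.05 with a fold change over 1.5, and the background called was 0% in both directions in both fits. At an unadjusted p under 0.05 stood 3 genes that were higher (Wasf1, Fyn and Lama4; 4.04% of all genes) and 3 that were lower (Armc2, Mical1 and Ak9; 1.65% of all genes). These are 18.2% of the 33 tested, beside 5.68% of all genes, and they include Wasf1 and Ak9, which reached the filter level in 1 group only. The counts that follow without the library labelled FOXO3 KO 2 likewise include Wasf1, Gm48061 and Gm9855. Without the library labelled FOXO3 KO 2, 4 were higher (the same 3 and Gm48061, beside 3.05% of all genes). Another 3 were lower (Armc2, Mical1 and Gm9855, beside 1.26%). In all this was 20.6% of 34 beside 4.3% of all genes. The flanking genes were chosen with earlier results of these data known, so these shares were not tested. Gm9855 and Gm48061, both counted here, are the only flanking genes not annotated as protein coding. Of those annotated as protein coding, 5 of 32 (15.6%) stood at that level in 5 libraries and 6 of 32 (18.8%) in 6 libraries. Of the 30 flanking genes at the filter level in both groups, 4 remained in each fit (Armc2, Mical1, Fyn and Lama4; 13.3%), beside 4.78% of such genes overall in 6 libraries and 3.66% in 5, a count added after the data were seen. DESeq2, with the same thresholds on adjusted p, called Lama4 in 6 libraries (0.756% of all genes were called higher and 0.0384% lower). In 5 libraries it called Gm48061 higher and Armc2 and Gm9855 lower, where 0.475% of all genes were called higher and 0.191% lower; Gm48061 and Gm9855 are 2 of the genes that were abundant in 1 group only. limma-voom called none of the 33 and 0% of all genes.

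The overlap of the groups is another view of the values per library, and its counts include genes that reached the filter level in 1 group only. These are Wasf1 and Ak9, and in 5 libraries also Gm9855 and Gm48061, which passed the filter through the group in which they were higher. WT and FOXO3 KO libraries did not overlap for 3 tested genes that were higher in FOXO3 KO (Wasf1, Fyn and Lama4; 7% of all genes) and 4 that were lower (Cep57l1, Mical1, Zbtb24 and Ak9; 5.36% of all genes). With 3 samples against 3 the smallest p of a two-sided exact permutation test on a single gene is 0.1. In 5 libraries, 12 of the 34 genes did not overlap, 35.3% beside 20.3% of all genes. This share was not tested either, since the flanking genes were chosen with earlier results known. Of the 12 genes, 4 were higher (11% of all genes) and 8 lower (9.23%). Of those 8, the library labelled FOXO3 KO 2 lay within the WT range for Armc2, Cdc40, Tube1 and Gm9855 and below it for Cep57l1, Mical1, Zbtb24 and Ak9. For all 4 that were higher it lay above the WT range. For Gm48061 the margin was narrow, at 0.109 CPM against 0.0839 CPM in WT 3, while FOXO3 KO 1 and 3 were at 1.49 and 1.29 CPM.

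**Figure D1:**
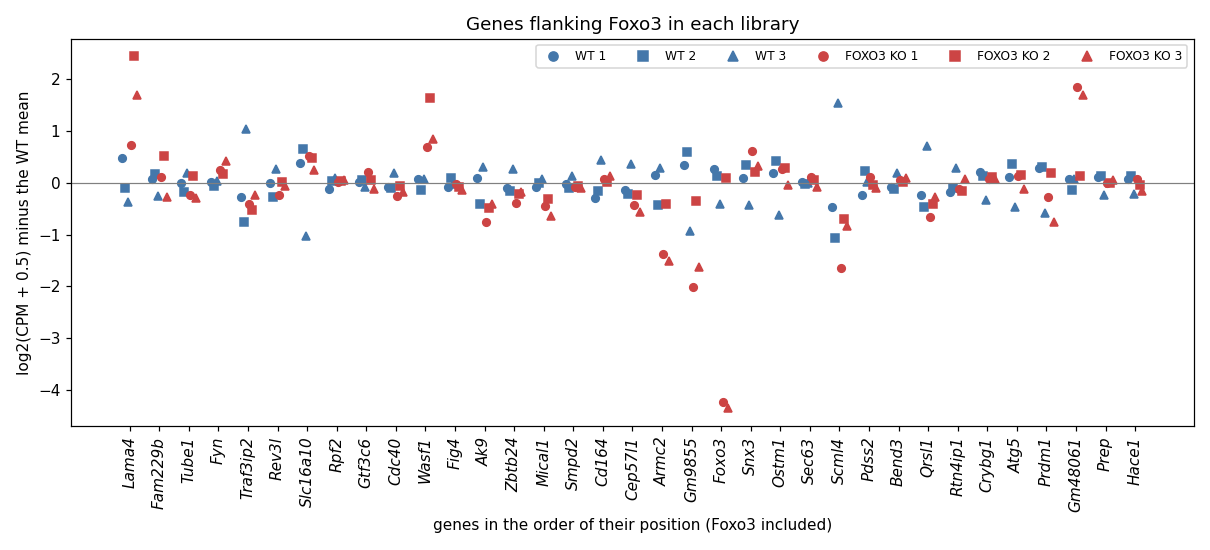
Expression of the 34 tested flanking genes and Foxo3 in each of the 6 libraries, as log2(CPM + 0.5) minus the mean of the 3 WT libraries, with the genes in the order of their position on the chromosome. Most genes lie close to 0 in every library, while Armc2, Gm9855 and Gm48061 part FOXO3 KO 1 and 3 from the rest, Lama4 and Wasf1 are highest in the library labelled FOXO3 KO 2, and Scml4 and Traf3ip2 are highest in WT 3.

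Closer to Foxo3 than any of the 45 lay Afg1l, 0.0358 Mb above it, a gene named after its values were seen. The log2 fold change of Afg1l was 0.05 in 5 libraries (unadjusted p = 0.83, edgeR). Of the 45 genes, the protein coding one nearest to Foxo3 was Armc2 (chr10:41914990-42018442, minus strand), 0.163 Mb away, which encodes an armadillo repeat protein needed for the flagella of sperm. Its expression was 8.95, 5.82 and 9.81 CPM in WT 1 to 3, and 2.80, 5.91 and 2.49 CPM in FOXO3 KO 1 to 3. Only FOXO3 KO 1 and 3 were below all WT libraries; the library labelled FOXO3 KO 2 was level with the lowest of them. The log2 fold change was -1.14 ± 0.40 (SE; unadjusted p = 0.0291, adjusted p = 0.827, edgeR) in 6 libraries and -1.63 ± 0.32 (unadjusted p = 0.00333, adjusted p = 0.770) in 5. DESeq2 gave Armc2 an adjusted p of 0.00111 in 5 libraries, within a range of 0.00111 to 1 over the 17 settings tried, in all of which Armc2 was lower. Armc2 is also in a panel of genes that the study chose on these samples, so its direction there is not independent of the value given here. Between the libraries with high Xist, the difference of FOXO3 KO 3 from WT 3 was -1.79 on the log2(CPM + 0.5) scale, and among those with low Xist, that of FOXO3 KO 1 from the mean of WT 1 and 2 was -1.23.

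The other genes of the centrosome and cilium differed less. Cep57l1, which encodes a centrosomal protein and begins 0.372 Mb below Foxo3, was at 6.62, 6.25 and 9.53 CPM in WT and at 5.31, 6.13 and 4.80 CPM in FOXO3 KO. The groups did not overlap, but WT 2 and the library labelled FOXO3 KO 2 were nearly level. Its log2 fold change was -0.46 ± 0.23 (adjusted p = 0.839, edgeR) in 6 libraries and -0.56 ± 0.28 (adjusted p = 0.994) in 5. Tube1, which encodes epsilon-tubulin, had -0.15 ± 0.24 in 6 libraries and -0.31 ± 0.27 in 5. All 3 genes of this group were thus lower in both fits, with Armc2 alone at an unadjusted p under 0.05.

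The nearest of all 45 was Gm9855 (chr10:42054113-42055306, minus strand, 0.127 Mb away), a processed pseudogene without introns. Its sequence is a near copy of the coding part of Tdg, which encodes a thymine DNA glycosylase and lies 40.4 Mb higher on the same chromosome. Over 1194 aligned bases the 2 differed at 9 positions (99.2% identity), and of all 31-base words of Gm9855, 90.5% occur in transcripts of some other gene and 83.4% in those of Tdg. The 120-base window with the most differences, bases 982 to 1101 of Gm9855, is shown from the GENCODE transcripts because reads can be told apart there and at few other places. Capitals mark the 5 positions at which Gm9855 and Tdg differ, and do not show that reads there are specific to Gm9855.
Gm9855: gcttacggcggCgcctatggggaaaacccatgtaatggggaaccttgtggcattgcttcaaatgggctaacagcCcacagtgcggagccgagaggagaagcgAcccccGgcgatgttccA
Tdg: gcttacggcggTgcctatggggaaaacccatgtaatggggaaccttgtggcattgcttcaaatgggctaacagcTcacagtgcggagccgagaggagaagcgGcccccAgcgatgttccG

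Counts assigned to Gm9855 were 74, 72 and 20 in WT 1 to 3, and 0, 30 and 5 in FOXO3 KO 1 to 3. FOXO3 KO 1 and 3 were below every WT library, and the library labelled FOXO3 KO 2 lay between WT 3 and WT 2. FOXO3 KO 1 and 3 together held 5 counts against 166 in the 3 WT libraries, which at equal depth is a level 20.4-fold lower (exact 95% interval 8.57 to 63.7, which covers counting error only). The log2 fold change was -2.06 ± 1.22 in 6 libraries and -4.38 ± 1.24 in 5. Tdg was measured at 46.1, 51.2 and 33.1 CPM in WT and at 50.5, 45.8 and 47.4 CPM in FOXO3 KO. The groups overlapped for Tdg, whose log2 fold change was 0.14 ± 0.17 in 6 libraries and 0.17 ± 0.21 in 5. How the authors' counting shared reads between Gm9855, Tdg, Gm5597 and Tdg-ps is not given, so the level of Gm9855 is uncertain.

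On the other side of Foxo3, at 2.30 Mb, lies Gm48061 (chr10:44580517-44590238, minus strand), annotated as a long intergenic RNA of 370 bases in 2 exons. Its whole first exon of 306 bases lies inside the processed pseudogene Gm5950 (chr10:44589928-44592573), which is annotated on the opposite strand, so that 81.8% of the 31-base words of Gm48061 read the same in Gm5950. Bases 171 to 370 of Gm48061 are shown, with the 62 bases that no word shared with Gm5950 covers in capitals, because those bases are the part specific to Gm48061.
Gm48061: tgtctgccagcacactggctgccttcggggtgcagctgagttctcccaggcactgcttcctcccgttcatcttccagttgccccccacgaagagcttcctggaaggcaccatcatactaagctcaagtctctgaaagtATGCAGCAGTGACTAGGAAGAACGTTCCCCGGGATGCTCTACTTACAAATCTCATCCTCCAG

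Gm48061 had 3, 0 and 3 counts in WT 1 to 3, and 42, 3 and 43 counts in FOXO3 KO 1 to 3. It was high in FOXO3 KO 1 and 3 and as low as WT, in counts, in the library labelled FOXO3 KO 2. FOXO3 KO 1 and 3 together held 85 counts against 6 in WT, a ratio of 23.1 at equal depth (exact 95% interval 10.2 to 64.6, counting error only). Gm48061 was too low to test in 6 libraries and passed the filter in 5 only through the group in which it was high. There its log2 fold change was 4.48 ± 0.74. Gm5950 had 0 or 1 count in each library. Whether the counting used strand is not given, so reads of the first exon of Gm48061 cannot be told apart from those of Gm5950 here. Markers of red blood cells were likewise highest in FOXO3 KO 1 and 3, with sums of 24.5, 9.63 and 27.0 CPM in WT and 117, 9.23 and 182 CPM in FOXO3 KO, and so were those of neutrophils, with 176, 194 and 126 CPM in WT and 465, 193 and 385 CPM in FOXO3 KO. All 5 red blood cell markers were tested and were higher in FOXO3 KO in both fits, as were all 6 of the 8 neutrophil markers that were tested, and neither list had a marker at 0 in all libraries. Their part in the values of Gm48061, and of Armc2 and Gm9855, which part the libraries in the opposite direction, was not tested.

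**Figure D2:**
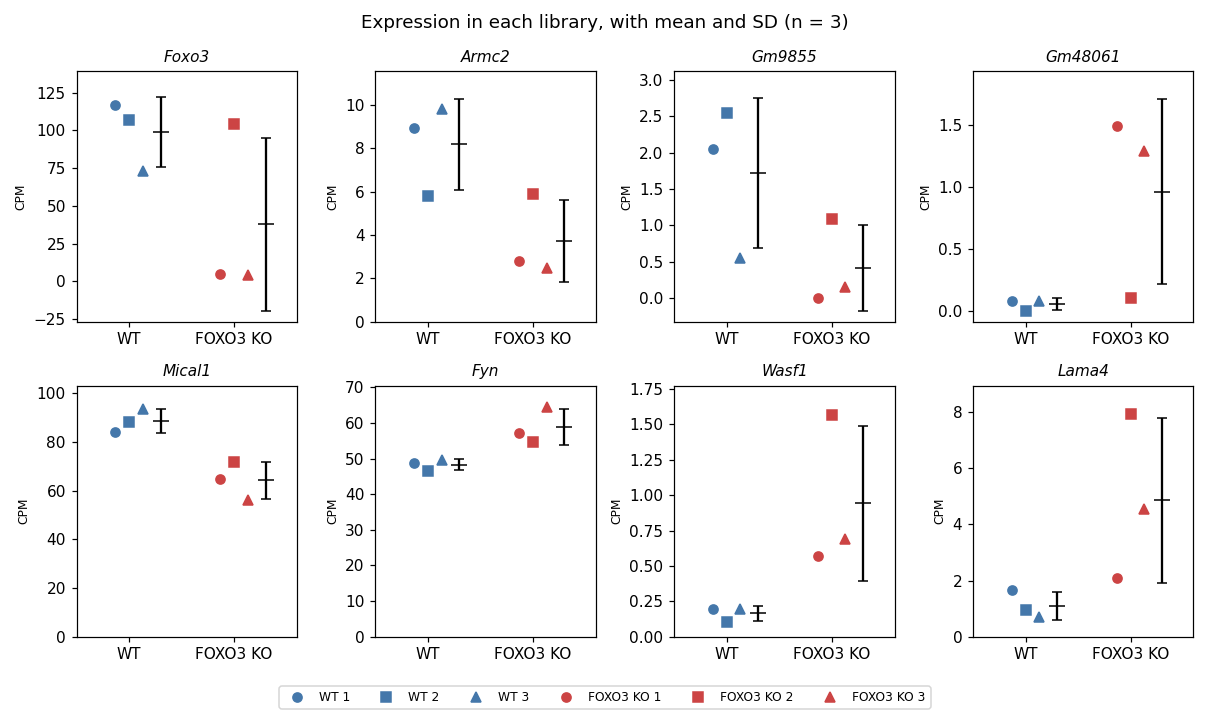
CPM of Foxo3 and 7 flanking genes in each library, with WT in blue, FOXO3 KO in red, a symbol for each replicate number, and the mean and SD of the 3 libraries of a group in black beside them. For Foxo3, Armc2, Gm9855 and Gm48061 the library labelled FOXO3 KO 2 (red square) lies at or near WT values, whereas for Mical1, Fyn, Wasf1 and Lama4 it lies on the same side of the WT libraries as FOXO3 KO 1 and 3.

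Of the 9 genes of signalling, actin and adhesion, 6 were tested. At an unadjusted p under 0.05 by edgeR in both fits, Mical1 was lower, and Fyn and Lama4 were higher. Wasf1, which reached the filter level in FOXO3 KO only, was also higher and is given as a description. Mical1, an actin-oxidising monooxygenase gene 0.695 Mb below Foxo3, was at 84.1, 88.3 and 93.7 CPM in WT 1 to 3 and at 64.9, 71.7 and 56.3 CPM in FOXO3 KO 1 to 3. All 3 FOXO3 KO libraries were below all WT libraries. The means were 88.7 ± 4.84 CPM in WT and 64.3 ± 7.70 CPM in FOXO3 KO (SD, n = 3). The log2 fold change was -0.46 ± 0.12 (unadjusted p = 0.00719, adjusted p = 0.714, edgeR) in 6 libraries and -0.55 ± 0.13 (adjusted p = 0.854) in 5, and it lay between -0.55 and -0.38 over all 17 settings tried. The downstream ends of Mical1 and Smpd2 overlap on opposite strands over 1391 bases, and 12.5% of the 31-base words of Mical1 occur in Smpd2. Smpd2, a neutral sphingomyelinase gene, was at 16.2 to 19.2 CPM in every library, with a log2 fold change of -0.09 ± 0.11 in 6 libraries and -0.10 ± 0.15 in 5.

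Fyn, a Src-family tyrosine kinase gene 2.62 Mb below Foxo3, was at 48.8, 46.5 and 49.5 CPM in WT and at 57.3, 54.6 and 64.4 CPM in FOXO3 KO. The 3 FOXO3 KO libraries were all higher, by a small amount relative to the level. The log2 fold change of Fyn was 0.28 ± 0.10 (unadjusted p = 0.0245, adjusted p = 0.788, edgeR) in 6 libraries and 0.34 ± 0.11 (adjusted p = 0.994) in 5.

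Wasf1 and Lama4 were at low levels, and both were highest in the library labelled FOXO3 KO 2. Wasf1, which encodes the actin regulator WAVE1 and ends 1.24 Mb below Foxo3, was at 0.194, 0.106 and 0.196 CPM in WT and at 0.567, 1.57 and 0.690 CPM in FOXO3 KO. These rest on 7, 3 and 7 counts in WT and 16, 43 and 23 counts in FOXO3 KO, and the groups did not overlap. Its log2 fold change was 2.46 ± 0.53 in 6 libraries and 1.89 ± 0.43 in 5. Lama4, the laminin alpha-4 chain of vessel and other basement membranes, was at 1.66, 0.953 and 0.699 CPM in WT and at 2.09, 7.92 and 4.56 CPM in FOXO3 KO. FOXO3 KO 1 lay just above the highest WT library. The log2 fold change of Lama4 was 2.13 ± 0.58 (unadjusted p = 0.00960, adjusted p = 0.714, edgeR) in 6 libraries and 1.59 ± 0.54 (adjusted p = 0.994) in 5. DESeq2 gave an adjusted p of 0.0490 in 6 libraries, within a range of 0.0490 to 0.994 over the 17 settings tried, with and without single libraries.

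The markers of mesothelial cells and fibroblasts moved with both genes. Their sums were 48.3, 38.5 and 35.0 CPM in WT and 72.8, 320 and 142 CPM in FOXO3 KO, the order of libraries within FOXO3 KO being that of Lama4 and Wasf1. Of the 8 markers 7 were tested in 6 libraries, 6 of them were higher in FOXO3 KO (the list's median was 2.22 on the log2 scale, and 1.51 in the fit of 5 libraries), and none was at 0 in all libraries. Their part in the values of Lama4 and Wasf1 was not tested.

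Wasf1 starts 163 bases from the start of Cdc40, a splicing factor gene that is read in the other direction. The stretch between the starts (chr10:40883312-40883474, GRCm38.p6, plus strand, from the RefSeq promoter table) is shown because Wasf1 had the largest positive log2 fold change of the flanking genes tested in 6 libraries. Capitals mark the 11 CG pairs of the stretch.
Cdc40 to Wasf1: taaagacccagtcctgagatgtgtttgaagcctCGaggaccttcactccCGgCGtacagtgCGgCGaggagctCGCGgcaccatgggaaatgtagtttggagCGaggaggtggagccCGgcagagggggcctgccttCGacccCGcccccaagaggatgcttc
Cdc40 was at 59.7, 59.2 and 71.9 CPM in WT and at 53.2, 61.0 and 55.7 CPM in FOXO3 KO, with a log2 fold change of -0.17 ± 0.12 in 6 libraries and -0.22 ± 0.14 in 5. Beside it Wasf1 was higher in FOXO3 KO, as given above.

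Of the remaining genes of this group, Traf3ip2, an adaptor of interleukin receptors, was at 10.1, 7.09 and 26.0 CPM in WT and at 9.14, 8.50 and 10.4 CPM in FOXO3 KO. WT 3 alone was high. Its log2 fold change was -0.62 ± 0.48 in 6 libraries, -0.56 ± 0.59 in 5 and 0.13 ± 0.20 without WT 3. Crybg1, a beta/gamma-crystallin domain gene, was at 83.7 to 122 CPM with overlapping groups and a log2 fold change of 0.06 ± 0.16 in 6 libraries and 0.05 ± 0.20 in 5. Bves, a Popeye-domain membrane protein gene, had under 0.15 CPM in every library and was not tested. Its FOXO3 KO libraries (0.142, 0.109 and 0.0899 CPM) were all above its WT libraries (0.0277, 0.0706 and 0.0559 CPM). These values rest on only 4, 3 and 3 counts in FOXO3 KO and 1, 2 and 2 counts in WT. Popdc3 of the same family was at 0 to 0.196 CPM.

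Among the 11 genes of transcription, chromatin, DNA and RNA, 8 were tested, and none stood at an unadjusted p under 0.05 in either fit. Zbtb24, a zinc finger gene mutated in an immunodeficiency with centromere instability, was at 18.8, 18.0 and 24.3 CPM in WT and at 15.2, 17.3 and 17.9 CPM in FOXO3 KO. The groups parted by a narrow margin, and the log2 fold change was -0.28 ± 0.16 in 6 libraries and -0.30 ± 0.19 in 5. Scml4, a Polycomb-related gene 0.584 Mb above Foxo3, was at 12.0, 7.73 and 49.7 CPM in WT and at 5.03, 10.1 and 9.26 CPM in FOXO3 KO. Only WT 3 stood apart, and the log2 fold change of -1.51 ± 0.73 (adjusted p = 0.839, edgeR) in 6 libraries was -1.69 ± 0.91 in 5 and -0.27 ± 0.34 without WT 3. Prdm1, which encodes the repressor BLIMP-1, was at 29.7, 30.1 and 16.0 CPM in WT and at 19.9, 27.8 and 14.2 CPM in FOXO3 KO. The libraries with high Xist, WT 3 and FOXO3 KO 3, were the lowest of their groups, and the log2 fold change was -0.29 ± 0.33 in 6 libraries and -0.57 ± 0.35 in 5. Rev3l, the catalytic subunit of DNA polymerase zeta, had -0.11 ± 0.15 in 6 libraries and -0.16 ± 0.19 in 5. Gtf3c6, Rpf2 and Bend3, with roles in transcription by RNA polymerase III, ribosome assembly and heterochromatin, lay between 0.03 and 0.05 in 6 libraries and between 0.03 and 0.07 in 5, each with overlapping groups. Nr2e1 and Lin28b had counts only in the library labelled FOXO3 KO 2, and Sobp was at 0.150 to 0.547 CPM; these 3 were not tested.

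The 6 genes of endosomes, lysosomes and membrane lipids were all tested, and 5 of them had a log2 fold change below 0.2 in size in both fits. Snx3, a sorting nexin of endosome recycling and the nearest of the 45 above Foxo3 (0.225 Mb), was at 170, 200 and 117 CPM in WT and at 241, 183 and 198 CPM in FOXO3 KO. FOXO3 KO 1 was the highest library and WT 3 the lowest, with overlap between the groups. Its log2 fold change was 0.36 ± 0.22 (adjusted p = 0.843, edgeR) in 6 libraries, 0.44 ± 0.27 in 5, and 0.18 ± 0.14 without WT 3. Ostm1, whose product partners the lysosomal chloride transporter ClC-7, was at 168, 197 and 95.8 CPM in WT and at 177, 180 and 143 CPM in FOXO3 KO. WT 3 was again the lowest, and the log2 fold change was 0.12 ± 0.27 in 6 libraries, 0.06 ± 0.34 in 5 and -0.12 ± 0.13 without WT 3. Cd164, a sialomucin of lysosomes and the cell surface, was at 152, 166 and 252 CPM in WT and at 195, 186 and 203 CPM in FOXO3 KO. For Cd164 the log2 fold change was 0.04 ± 0.21 in 6 libraries, 0.07 ± 0.25 in 5 and 0.30 ± 0.08 without WT 3 (unadjusted p = 0.00985, adjusted p = 0.513, edgeR). Atg5, required for autophagosome formation, was at 47.8 to 85.6 CPM with a log2 fold change of 0.02 ± 0.22 in 6 libraries and -0.03 ± 0.27 in 5. Fig4, a phosphoinositide phosphatase gene, was at 53.1 to 63.1 CPM with -0.09 ± 0.09 in 6 libraries and -0.09 ± 0.12 in 5.

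Of 8 genes of mitochondria, metabolism and transport, 5 were tested. Ak9, an adenylate kinase gene 0.747 Mb below Foxo3, was at 0.859, 0.459 and 1.06 CPM in WT and at 0.248, 0.401 and 0.450 CPM in FOXO3 KO. The groups did not overlap, though WT 2 lay only just above FOXO3 KO 3. For Ak9, which reached the filter level in WT only, the log2 fold change was -1.11 ± 0.43 in 6 libraries and -1.17 ± 0.54 in 5. Slc16a10, a transporter of aromatic amino acids, was at 158, 191 and 59.9 CPM in WT and at 175, 170 and 145 CPM in FOXO3 KO. WT 3 was far below the other 5 libraries, and the log2 fold change was 0.26 ± 0.40 in 6 libraries, 0.23 ± 0.49 in 5 and -0.09 ± 0.12 without WT 3. Qrsl1, part of a mitochondrial amidotransferase, was at 11.8, 9.92 and 23.2 CPM in WT and at 8.68, 10.4 and 11.5 CPM in FOXO3 KO, and WT 3 was the only library far from the rest. For Qrsl1 the log2 fold change was -0.55 ± 0.34 in 6 libraries, -0.57 ± 0.42 in 5 and -0.08 ± 0.17 without WT 3. Pdss2, of coenzyme Q synthesis, and the mitochondrial Rtn4ip1 had -0.02 ± 0.20 and -0.08 ± 0.18 in 6 libraries, and -0.0034 ± 0.25 and -0.04 ± 0.22 in 5. Ddo, a D-aspartate oxidase gene, and Mettl24 stayed under 0.4 CPM and were not tested.

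Of the role groups, protein targeting and turnover had the smallest median size of log2 fold change, 0.02 in both fits. Sec63, which serves protein entry into the endoplasmic reticulum and lies 0.485 Mb above Foxo3, was at 118, 115 and 116 CPM in WT and at 125, 120 and 110 CPM in FOXO3 KO. The groups overlapped, and the log2 fold change was 0.02 ± 0.09 in 6 libraries and 0.01 ± 0.13 in 5. Prep, a prolyl endopeptidase gene, had 0.01 ± 0.12 in 6 libraries and 0.02 ± 0.16 in 5, and Hace1, a ubiquitin ligase gene and the farthest above Foxo3, had -0.05 ± 0.13 and -0.04 ± 0.17. Ppil6, a cyclophilin-like gene, was at 0.0354 to 0.282 CPM and was not tested. Among the genes without a settled role, Fam229b had a log2 fold change of 0.20 ± 0.36 in 6 libraries and -0.10 ± 0.38 in 5, and Ccdc162 was at 0 to 0.240 CPM and was not tested.

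WT 3 was thus the library farthest from the rest for Scml4, Traf3ip2 and Qrsl1, in which it was the highest. It was the lowest for others, among them Slc16a10, Ostm1, Crybg1 and Atg5, and macrophage markers were also lowest there, at 15110 CPM. B cell markers moved with Scml4, Traf3ip2 and Qrsl1, with sums of 686, 345 and 3251 CPM in WT and of 128, 313 and 647 CPM in FOXO3 KO. All 8 B cell markers were tested and had a negative log2 fold change in the fit of 6 libraries, and none was at 0 in all libraries. T cell markers were also highest in WT 3, at 286 CPM, against 62.0 to 105 CPM elsewhere, as were mast cell markers, at 831 CPM against 107 to 305 CPM, and dendritic cell markers, at 171 CPM against 46.3 to 99.3 CPM. In the fit of 6 libraries 1 of 8 T cell markers and 0 of 8 mast cell markers were higher in FOXO3 KO. Of the 6 dendritic cell markers 5 were higher in FOXO3 KO, so most of that list went the other way. The part of these cell types in the values of Scml4, Traf3ip2 and Qrsl1 was not tested.

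**Figure D3:**
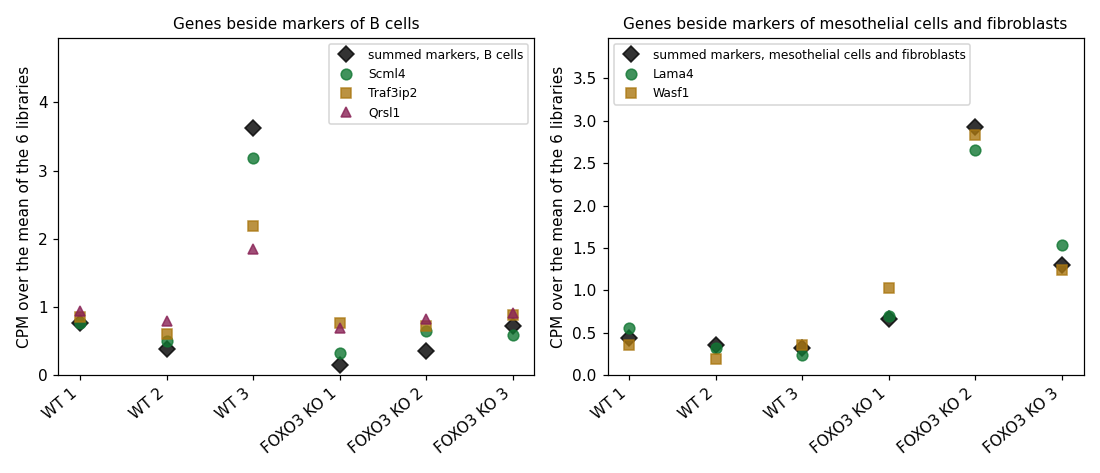
Values per library divided by their mean over the 6 libraries, on the left for Scml4, Traf3ip2 and Qrsl1 beside the summed CPM of 8 B cell markers, and on the right for Lama4 and Wasf1 beside the summed CPM of 8 markers of mesothelial cells and fibroblasts. The left-hand genes and markers are highest in WT 3, and the right-hand ones in the library labelled FOXO3 KO 2, where Lama4 reaches 7.92 CPM.

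Some flanking genes share a start region with a neighbour on the other strand, and their values can be read in pairs. Qrsl1 and Rtn4ip1 start 61 bases apart, with log2 fold changes of -0.55 and -0.08 in 6 libraries and -0.57 and -0.04 in 5. Fig4 and Ak9 start 719 bases apart and had -0.09 and -1.11, and -0.09 and -1.17 in 5. Fam229b and Tube1, 61 bases apart, had 0.20 and -0.15, and -0.10 and -0.31 in 5. In Cep57l1 and Sesn1 the starts are 63 bases apart and both genes were lower in FOXO3 KO. Sesn1, a stress-response gene that is not among the 45 and was named after its values were seen, was at 127, 119 and 143 CPM in WT and at 93.3, 117 and 97.6 CPM in FOXO3 KO. The groups did not overlap for Sesn1, with a log2 fold change of -0.34 ± 0.13 (unadjusted p = 0.0415, adjusted p = 0.839, edgeR) in 6 libraries and -0.44 ± 0.14 in 5.

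The letters GTAAACA, the core bound by forkhead factors, were looked for on both strands in the RefSeq promoter windows (GRCm38.p6, 250 bases before to 50 after each start). Windows were found for 34 of the 45 genes, 42 windows in all, and 2 held the letters, those of Bend3 and Prdm1, while 3.65% of all 32851 windows did. The stretches are shown with the motif, on either strand, in capitals: Bend3 at chr10:43492925-43492984 (plus strand) and Prdm1 at chr10:44458940-44458998 (minus strand). There the motif begins 220 and 231 bases before the RefSeq start of the window. Both stretches lie inside the GENCODE gene bodies, in which Bend3 starts at 43478831 and Prdm1, on the minus strand, at 44528501.
Bend3: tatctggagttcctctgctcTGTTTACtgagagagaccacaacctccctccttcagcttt
Prdm1: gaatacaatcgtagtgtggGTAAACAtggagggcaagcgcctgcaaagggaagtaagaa
A match is a description of the letters, not of binding. Bend3 was at 6.92 to 8.72 CPM in every library, with a log2 fold change of 0.05 ± 0.16 in 6 libraries and 0.07 ± 0.21 in 5, and Prdm1 overlapped between the groups.

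The flanking genes can also be read by side and by distance. Of the genes at lower coordinates than Foxo3, 26 in all, 17 reached the filter level in both groups, and 4 of these stood at an unadjusted p under 0.05 by edgeR in each fit (23.5%, beside 4.78% of such genes overall in 6 libraries and 3.66% in 5). Of the 19 at higher coordinates, 13 reached it and 0 stood at that level by edgeR; DESeq2 called Gm48061 on this side in 5 libraries, a gene abundant in 1 group only. Over all tested genes, the median size of the log2 fold change was 0.27 on the lower side and 0.06 on the higher side in 6 libraries, beside 0.18 for all genes, and 0.30 and 0.05 in 5, beside 0.19. These medians include genes abundant in 1 group only, namely Ak9, Gm9855 and Wasf1 on the lower side and, in 5 libraries, Gm48061 on the higher side. Each of these passed the filter through the group in which it was higher and exceeded the median size of its side. Medians without them were not computed. The difference between the sides was not tested, since the genes were chosen with results known.

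By distance, all genes of chromosome 10 were taken from the annotation, whether among the 45 or not. In 5 libraries, 4 of 17 tested genes within 1 Mb of Foxo3 stood at an unadjusted p under 0.05 (23.5%), 4 of 41 at 1 to 5 Mb (9.76%), 2 of 40 at 5 to 10 Mb (5%), 5 of 105 at 10 to 20 Mb (4.76%) and 23 of 596 farther away (3.86%). Genes of other chromosomes stood at 4.28%. In 6 libraries the shares over the same distances were 29.4%, 10.8%, 5.56%, 10.1% and 4.90%, and 5.65% on other chromosomes. Among genes at the filter level in both groups they were 20%, 6.45%, 5.88%, 4.44% and 3% in 5 libraries, with 3 of 15 genes within 1 Mb, and 3.64% on other chromosomes. In 6 libraries they were 26.7%, 6.67%, 6.45%, 8.99% and 4.11%, with 4 of 15 genes within 1 Mb, and 4.75% on other chromosomes. Without the 45 genes, 1 of 24 others within 5 Mb stood at that level in 5 libraries (4.17%) and 3 of 21 in 6 libraries (14.3%).

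By DESeq2 in 5 libraries the called genes of chromosome 10, Foxo3 left out, were Armc2 and Gm9855 within 1 Mb, Gm48061 at 1 to 5 Mb, Amd2 and Gm46223 at 5 to 10 Mb, none of 105 at 10 to 20 Mb and Cdk1 alone among 596 farther away, with 0.658% called on other chromosomes. In 6 libraries it called none of 17 within 1 Mb, Lama4 at 1 to 5 Mb, Amd2 and Gm46223 at 5 to 10 Mb, Gja1 at 10 to 20 Mb and Cdk1, Col6a1, Col6a2, Samd5 and Timp3 farther away, with 0.777% on other chromosomes. Among the called genes within 5 Mb, Gm9855 and Gm48061 reached the filter level in 1 group only, the one in which they were higher. The genes beyond 5 Mb are not among the 45 and were named after their values were seen. Amd2, a copy of the S-adenosylmethionine decarboxylase gene Amd1, lies 6.47 Mb below Foxo3 and was at 0.914, 0.988 and 0.895 CPM in WT and at 11.3, 1.46 and 10.5 CPM in FOXO3 KO. As for Gm48061, FOXO3 KO 1 and 3 were high and the library labelled FOXO3 KO 2 was close to WT. Amd1, which holds 90.9% of the 31-base words of Amd2, was at 82.7 to 98.1 CPM in every library. Gm46223, 8.15 Mb above Foxo3, was at 9.39, 4.27 and 11.9 CPM in WT and at 0.425, 0.438 and 1.05 CPM in FOXO3 KO. It differed from Armc2 and Gm9855 in that the library labelled FOXO3 KO 2 was as low as FOXO3 KO 1. Of its 31-base words, 90.1% occur in Gm42427 on chromosome 5, so its counts too depend on how shared reads were assigned. Gm42427 was itself lower in FOXO3 KO, at 36.2, 52.9 and 59.9 CPM against 99.5, 67.0 and 146 CPM in WT, with a log2 fold change of -1.07 ± 0.32 (unadjusted p = 0.0152, adjusted p = 0.731, edgeR) in 6 libraries.

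**Figure D4:**
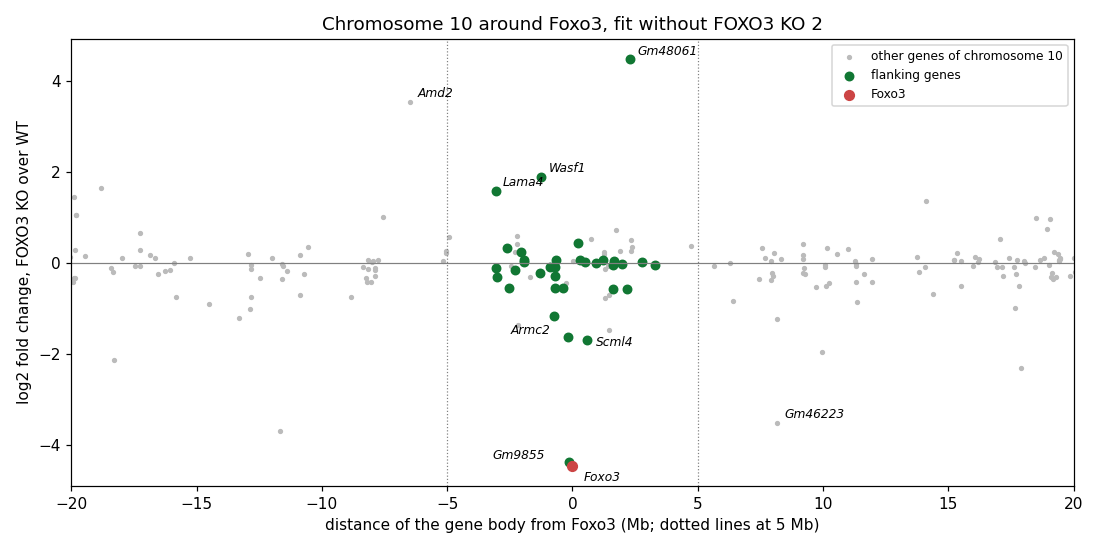
The log2 fold change of FOXO3 KO over WT in the fit of 5 libraries for tested genes of chromosome 10 against their distance from Foxo3 in Mb, shown to 20 Mb on either side, with the flanking genes in green, Foxo3 in red and other genes in grey. Gm9855 at -4.38 lies next to Foxo3 at -4.46, Gm48061 and Amd2 stand highest at 4.48 and 3.55, and most other genes lie near 0.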

How the data were processed

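RNA-seq of 6 libraries (paired-end reads of 76 bp) was analysed from the estimated counts per gene symbol that the authors deposited, which carry no scaling between libraries. They were rounded to whole numbers, which 81.4% already matched within 0.01. The submitters' processing notes name STAR 2.6.1d, kallisto 0.46.0, DESeq2 and mm10, the assembly of GRCm38, with no roles; the sources used here do not give the annotation, the strand or the treatment of shared reads. Positions came from GENCODE M21, in which 99.0% of the symbols were found, and promoter sequences from RefSeq GRCm38.p6. Distances run from gene body to gene body.

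Groups follow the labels. FOXO3 KO was set against WT in edgeR 4.0.16 under R 4.3.3 (filterByExpr, TMM, quasi-likelihood test, Benjamini-Hochberg over all genes tested), with thresholds of 0.05 and 1.5-fold. The standard error of an edgeR value is its absolute value divided by the root of the quasi-likelihood F. CPM are rounded counts over the TMM-scaled library size of all 6 libraries, and a pseudocount of 0.5 CPM was used for log2 differences between libraries. A 31-base word is shared if it occurs, on either strand, in a transcript of another gene. Alternatives were DESeq2 1.42.0, limma-voom 3.58.1, upper-quartile factors, library size, no filter, at least 10 counts in at least 3 libraries, a replicate block, a term for the split by Xist, and each library left out. Scripts were tested on simulated data. Other tables were made in Python 3.11.15 (pandas 2.3.3, numpy 2.4.6; exact intervals in scipy 1.17.1).

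The flanking genes, the lists and the tests were chosen with earlier results of these data known, so lists were given no test. Named genes are Foxo3, those whose groups do not overlap, the 4 nearest on each side, the 5 largest changes in each direction, those at an unadjusted p under 0.05 and examples of each role. Likeness to Foxo3 over libraries is not given, because Foxo3 took only 2 separate levels.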

Additional observations from a re-analysis of the deposited data

How the results depend on the processing

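Levels under about 1 CPM (Wasf1, Ak9, Gm48061) rest on few counts, Gm9855 and Gm48061 also on how shared reads were assigned, and 1 of the 3 FOXO3 KO libraries goes against its label. Wasf1, Ak9, Gm9855 and Gm48061 reached the filter level in 1 group only, the one in which they were higher. A threshold passed by such a gene is given as a description. Over the 19 named flanking genes tested in 6 libraries, 304 alternative values were computed. Of these, 294 kept their direction and their side of the threshold, and 7 reversed. The other 3 passed the threshold: Armc2 (-1.64) and Gm9855 (-4.47) by DESeq2 without the library labelled FOXO3 KO 2, and Lama4 (2.13) by DESeq2. Gm48061, which was not tested in 6 libraries, is outside this count and was also called by DESeq2 in 5 libraries. With 1 library left out at a time the log2 fold changes that reversed ran from -0.0802 to 0.16 for Crybg1, -0.12 to 0.341 for Ostm1, -0.0854 to 0.587 for Slc16a10 and -0.944 to 0.129 for Traf3ip2, all reversed without WT 3, and from -0.0304 to 0.132 for Gtf3c6 and -0.0214 to 0.0691 for Sec63, both reversed without FOXO3 KO 1; Sec63 was also -0.0049 with library size alone. The cause was not tested.

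Without the library labelled FOXO3 KO 2, Foxo3 passed the threshold by DESeq2 (-4.46) and with a term for the split by Xist (-4.35); leaving out 1 library at a time gave -4.46 to -0.87. Over all genes, edgeR called 0 in each direction. DESeq2 called 118 higher and 6 lower in 6 libraries, and 77 and 31 without the library labelled FOXO3 KO 2, where the Xist term called 11 and 6. Of the flanking genes, DESeq2 called 1 higher in 6 libraries, and 1 higher and 2 lower in 5. At an unadjusted p under 0.05, 5 were higher and 8 lower with the Xist term in 5 libraries, where 14.5% of all genes stood at that level, and leaving out 1 library at a time gave 2 to 5 higher and 1 to 4 lower. The lower genes numbered 1 without WT 1, WT 3, FOXO3 KO 1 or FOXO3 KO 3, against 3 in all libraries, and genes at the filter level in both groups, an alternative added after the data were seen, were 2 higher and 2 lower. Of all genes at that level, 71% were higher by edgeR and 53.6% by DESeq2.

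The median log2 fold change of the flanking genes was 0.04 with no filter (0.035 before rounding), and -0.11 to -0.00366 with 1 library left out. Genes tested in 6 libraries whose groups do not overlap numbered 2 lower with upper-quartile factors, 1 with library size alone and 1 with counts over the library total; with 1 library left out they were 3 to 5 higher and 4 to 8 lower. No scaling moved the median of all genes by over 0.1.

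Same-numbered WT and FOXO3 KO libraries share only a number: their deviations from the group means correlated at 0.339, -0.06 and 0.567, and WT 2 correlated best with FOXO3 KO 1. With the replicate number as a block, Foxo3 was at -3.06, edgeR called 0 genes, and 3 flanking genes were higher and 2 lower at an unadjusted p under 0.05.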
